A study of Schizosaccharomyces pombe with 5 samples.

Results

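The 47 genes described here are the fission yeast genes for sugar chains on proteins and for GPI anchors that a rule on gene symbols picks out: every spot of the array whose platform annotation gives 1 gene and whose symbol is alg, gpi, gmh, omh, och, mnn, gma, ogm, ost or stt followed by a number. They are 47 of the 4797 genes with a value. By role they fall into 12 genes for the lipid-linked oligosaccharide (alg), 3 for the oligosaccharyltransferase (ost1, ost2, stt3), 3 protein O-mannosyltransferases (ogm), 8 Golgi mannosyltransferase genes (och1, mnn9, omh), 7 Golgi galactosyltransferase genes (gma12, gmh) and 13 for the GPI anchor (gpi). The remaining gene, stt4, meets the symbol rule but encodes a phosphatidylinositol 4-kinase and not a glycosylation enzyme, so the label covers 46 of the 47.

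N-glycosylation begins on a lipid of the endoplasmic reticulum (ER), dolichol, on which alg enzymes build an oligosaccharide sugar by sugar, first on the cytosolic and then on the lumenal face of the membrane. Oligosaccharyltransferase moves the finished chain to asparagine residues of new proteins. Protein O-mannosyltransferases put mannose on serine and threonine in the ER, and Golgi transferases lengthen both kinds of chain. Fission yeast adds galactose there, which makes the galactomannan of its cell surface. A GPI anchor is a glycolipid, built in the ER, that ties proteins to the membrane and through it to the cell wall.

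RNA came from cultures of strain L972 of Schizosaccharomyces pombe, grown in EMM2 minimal medium at 26 °C. For the G0 state (resting, nitrogen-starved) they were washed and held for 48 h in EMM2 without a nitrogen source. For the time course, such cultures received 4 volumes of fresh EMM2 and were collected 1, 2, 3.5 or 6 h later, while vegetative cells were taken in logarithmic growth and were never starved. On each of 5 cDNA arrays, 1 per condition, Cy5 marked polyadenylated RNA of the growing cells and Cy3 that of G0 cells. Fresh medium and nitrogen came together, so their effects cannot be told apart. For 3 of the samples (3.5 h, 6 h and vegetative) a free-text note gives 2 h, and here their titles and sources were followed. All values below are log2 ratios of growing over G0 cells, so 1 is 2-fold above G0 and -1 is 2-fold below it, with base 2 an assumption.

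No condition was repeated, so no difference here has a replicate check and none was tested. The only error the arrays hold is that between repeated spots, with a pooled SD of 0.18 to 0.25 for the control genes cdc2, nda3 and nuc1 and of 0.38 to 0.47 for 12 unnamed positions printed in each of 16 blocks. Each of the 47 genes had 1 spot, so its own error is unknown. A log2 ratio of 1 lies beyond 2 SD of the larger spot error on every array (0.76 to 0.94), and 2-fold is the size used below. Gene medians ran from 0.00 at 2 h to 0.14 at 3.5 h over 4765 to 4781 genes an array. The values of the 1 h and 2 h arrays carry 9 decimals and those of the other arrays 3. Any contrast below between these sets of columns therefore cannot tell time or growth state from the set. Of genes known for starvation, mating or growth on poor carbon sources, mei2, ste11, mfm1, isp6 and fbp1 lay below G0 on all 5 arrays. The growth genes nuc1 and ura3 lay above G0 on all 5 and the ribosomal protein gene rpl501 below it.

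Values at least 2-fold from G0 were a smaller share among the glycosylation and GPI anchor genes than among all genes. Of their 233 values, 44 (18.9%) were at least 2-fold from G0 in either direction, against 37.3% of all gene values. Of the 45 genes with 5 values, 0 reached 4-fold on any array, against 28.9% of all genes; the farthest was gpi14 with -1.99 at 6 h. That value is just short of 4-fold, and it became -2.02 with arrays centred, -2.03 with blocks centred and -2.43 with arrays scaled to 1 spread, which makes the count 1 of 45 under each of these. None was 2-fold from G0 the same way on all 5 arrays, against 13.8% of all genes. Those that passed 2-fold mostly did so once. On exactly 1 array 18 of the 45 did (40.0%), against 16.7% of all genes. On at least 1 array 29 of the 45 did, a share of 64.4% beside 66.7% of all genes, which is near the background. Conversely 16 stayed under 2-fold throughout, beside 33.3% of all genes.

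**Figure D1:**
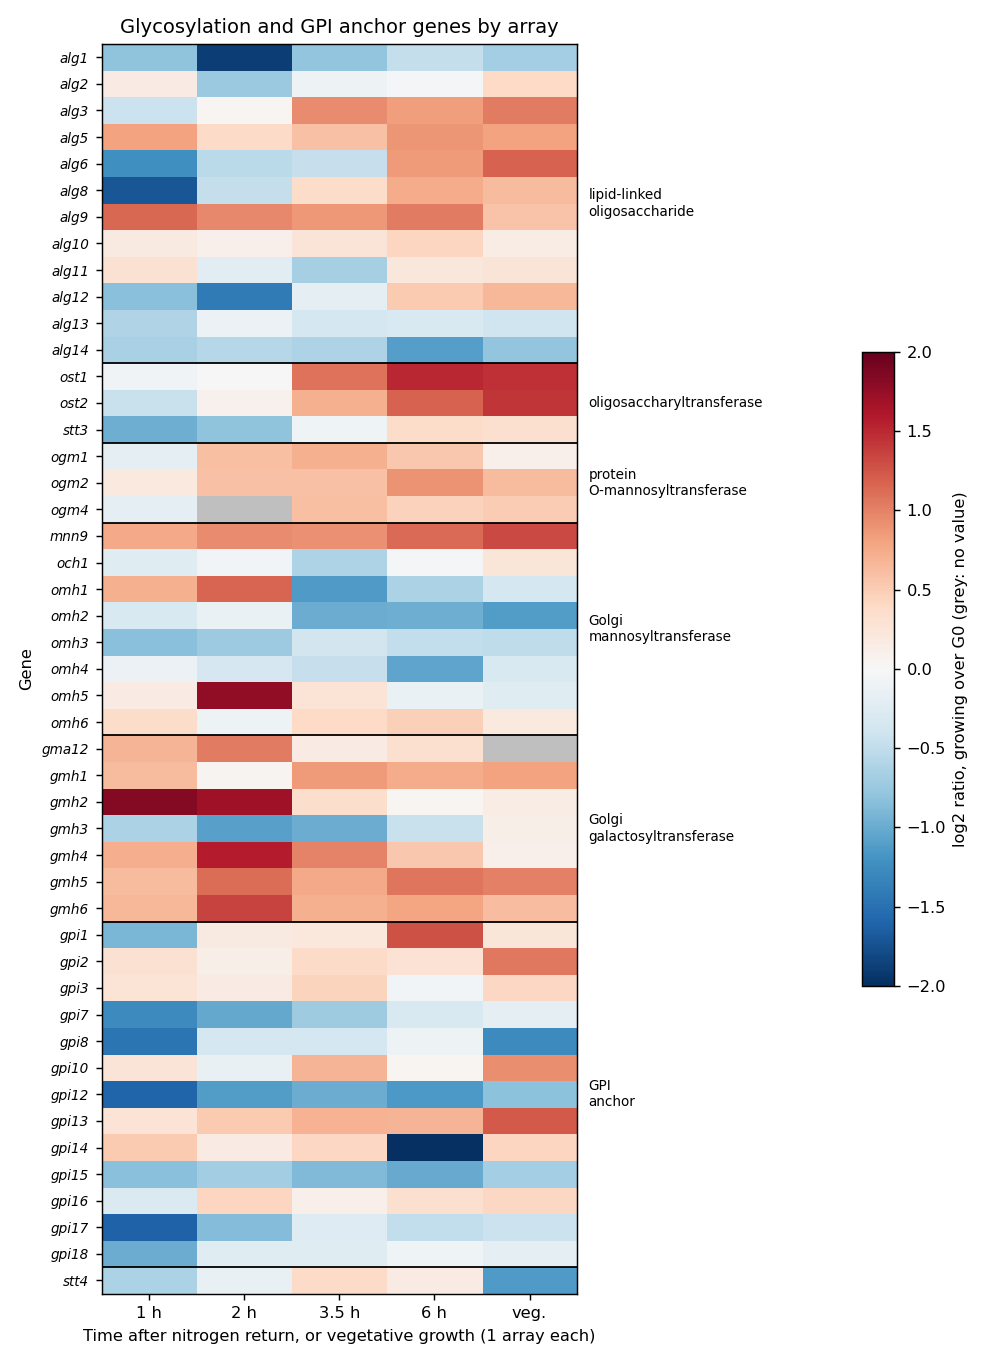
Log2 ratios of growing over G0 cells for the 47 genes (rows, in role order) on the 5 arrays (columns, 1 array each); red is above G0, blue below, grey has no value. The darkest cells are gpi14 at 6 h (-1.99), alg1 at 2 h (-1.88) and gmh2 at 1 h (1.83), and most rows are pale on most arrays.

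On the 1 h array, 2 of the 47 genes were at least 2-fold above G0 and 6 below, against 23.4% and 22.6% of all 4769 genes. The median of the 47 was -0.18, and their middle 50% ran from -0.82 to 0.34, against -0.90 to 0.91 for all genes. At 2 h, 7 of 46 were 2-fold higher and 5 lower (all genes 22.8% and 21.3%), with a median of -0.04. At 3.5 h only ost1 was 2-fold higher and only omh1 lower (all genes 18.9% and 16.7%), with a median of 0.26. Centred on the array's gene median, which at 3.5 h was 0.14, the split there was 0 higher and 5 lower, beside 15.9% and 19.7% of all genes centred in the same way. At 6 h, 6 of 47 were higher and 5 lower (all genes 15.6% and 14.9%; median 0.29). The 6 h split was 3 and 5 with each block centred (all genes 14.6% and 15.7%), and 10 and 6 with arrays scaled to 1 spread (19.7% and 17.9%). In vegetative cells 8 of 46 were higher and 3 lower (all genes 15.8% and 14.6%; median 0.25). Centring made that 5 and 3 (13.8% and 16.3%), and centring of blocks 4 and 3 (12.8% and 17.0%). With the values as deposited, the share of the genes past 2-fold was below that of all genes in both directions at 1, 2, 3.5 and 6 h. In vegetative cells it was below it in the lower direction and slightly above it in the higher one. For the higher genes these orders rest on the processing: in vegetative cells their share fell below that of all genes when arrays or blocks were centred, and at 6 h it rose above it when arrays were scaled. They also rest on the limit, since at 1.5-fold 17 of 47 were lower at 1 h beside 32.3% of all genes, and 14 of 47 higher at 6 h beside 26.5%.

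**Figure D2:**
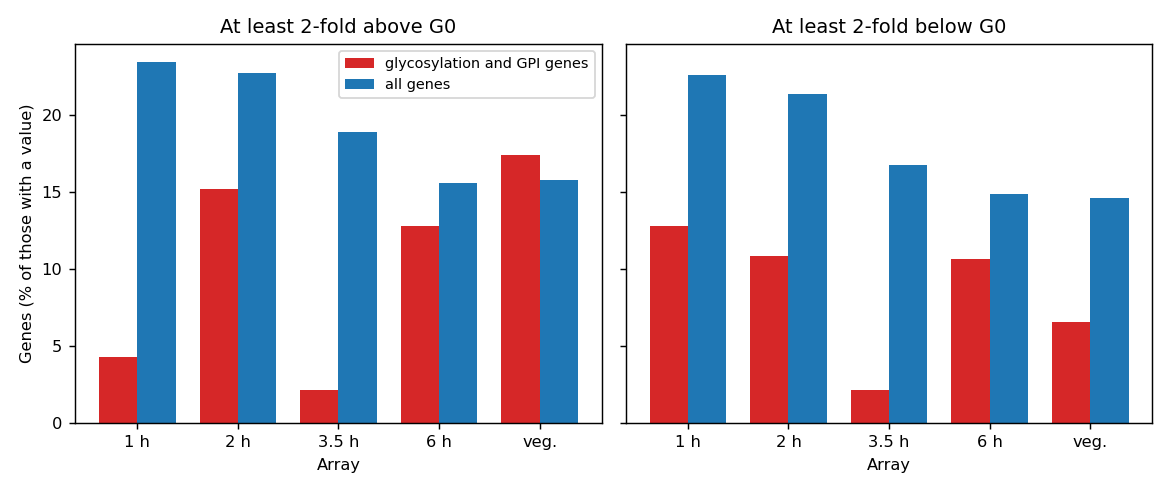
Percentage of genes at least 2-fold above G0 (left) or below it (right) on each array, for the glycosylation and GPI anchor genes (red; 46 or 47 with a value) and for all genes (blue; 4765 to 4781). With the values as deposited, the red bar is lower than the blue one everywhere except above G0 in vegetative cells, where 8 of 46 genes stand beside 15.8% of all genes; centring turns that order (5 of 46 beside 13.8%), and scaling turns the one above G0 at 6 h (10 of 47 beside 19.7%).

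The alg genes for the lipid-linked oligosaccharide had medians of -0.52, -0.35, -0.15, 0.48 and 0.48 in array order (1, 2, 3.5 and 6 h, then vegetative). Of the 12, 7 passed 2-fold on at least 1 array, not far from the 66.7% of all genes. The glucosyltransferase gene alg8 stood at -1.72, -0.47, 0.36, 0.74 and 0.64 in the same order. The gene alg6, for the transferase that adds the first glucose of the chain, stood at -1.23, -0.54, -0.46, 0.86 and 1.18. The lumenal mannosyltransferase gene alg12 stood at -0.84, -1.41, -0.19, 0.53 and 0.67. These 3 genes were below G0 at 1 and 2 h and above it at 6 h and in vegetative cells. Of their values, only alg8 and alg6 at 1 h, alg12 at 2 h and alg6 in vegetative cells lay beyond the larger 2 SD of spot error. The gene alg3, for the first mannosyltransferase on the lumenal side, stood at -0.43, 0.04, 0.95, 0.83 and 1.04. Another lumenal mannosyltransferase gene, alg9, stood at 1.15, 0.97, 0.87, 1.04 and 0.57 and was above G0 on all 5 arrays.

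On the cytosolic side alg1, which encodes the enzyme that adds the first mannose, had the lowest value of the alg genes on any array. It stood at -0.81, -1.88, -0.79, -0.47 and -0.68, so it was below G0 throughout and lowest at 2 h. The genes alg13 and alg14 encode the partners that add the second N-acetylglucosamine. Their ratios ran from -0.61 to -0.12 for alg13 and from -1.10 (6 h) to -0.57 for alg14, below G0 on every array. The 5 alg genes that never passed 2-fold were alg2, alg5, alg10, alg11 and alg13. Of these alg5, for the dolichol phosphate glucose synthase, ran from 0.39 to 0.88, alg10, for the last glucosyltransferase, from 0.11 to 0.43, and the cytosolic mannosyltransferase genes alg2 and alg11 from -0.74 to 0.40 and from -0.66 to 0.30.

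Split by the side of the ER membrane on which their enzymes work, a split made after the values were seen, the 6 lumenal transferase genes (alg3, alg6, alg8, alg9, alg10, alg12) were all above G0 at 6 h, with a median of 0.79 and a range of 0.43 to 1.04. In vegetative cells they were all above it too (median 0.65), and 5 of the 6 with each block of the array centred. At 6 h only alg9 lay beyond the larger 2 SD of spot error (0.94). In vegetative cells only alg3 and alg6 lay beyond it (0.76). Among all genes, 2479 of 4779 were above G0 at 6 h and 2570 of 4765 in vegetative cells. The 5 cytosolic genes (alg1, alg2, alg11, alg13, alg14) had medians of -0.31 and -0.40 on those arrays, with 1 and 2 of them above G0. The remaining alg gene, alg5, for a donor synthase, was left out of both sets. It stood at 0.88 and 0.80 there, so counting it with the cytosolic genes would raise their medians. At 1 h the medians of the lumenal and cytosolic genes were -0.64 and -0.61. A single high or low spot moves medians of so few genes.

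Oligosaccharyltransferase genes were near or below G0 early and above it late. The subunit gene ost1 stood at -0.07, -0.02, 1.09, 1.51 and 1.46, and the subunit gene ost2 at -0.44, 0.08, 0.70, 1.18 and 1.43. The catalytic subunit gene stt3 stood at -0.98, -0.81, -0.08, 0.37 and 0.32. On every array stt3 was lower than ost1 and ost2. All 3 were higher on the 6 h and vegetative arrays than on the 1 h and 2 h arrays, which differ from them in set of columns as well. Their median was 1.18 at 6 h and 1.43 in vegetative cells, against 0.04 and 0.09 for all genes. With 2 genes past 2-fold of 3 measured, this group had the highest median of the 6 roles on both of these arrays. Of all genes, 15.6% and 15.8% were at least 2-fold higher there.

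Protein O-mannosyltransferase genes stayed under 2-fold on every array as deposited, and with arrays scaled 1 of 3, ogm2 at 6 h (1.10), was past it. The ratios of ogm1, ogm2 and ogm4 lay between -0.19 and 0.20 at 1 h. From 2 h on, all their values were above G0. For ogm1 they were 0.60, 0.71, 0.54 and 0.10, and for ogm2 0.59, 0.58, 0.90 and 0.64. The ogm4 spot had no value at 2 h and stood at 0.60, 0.46 and 0.51 after it. The medians of the 3 genes lay between 0.51 and 0.60 from 2 h on, within the larger 2 SD of spot error on each array.

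**Figure D3:**
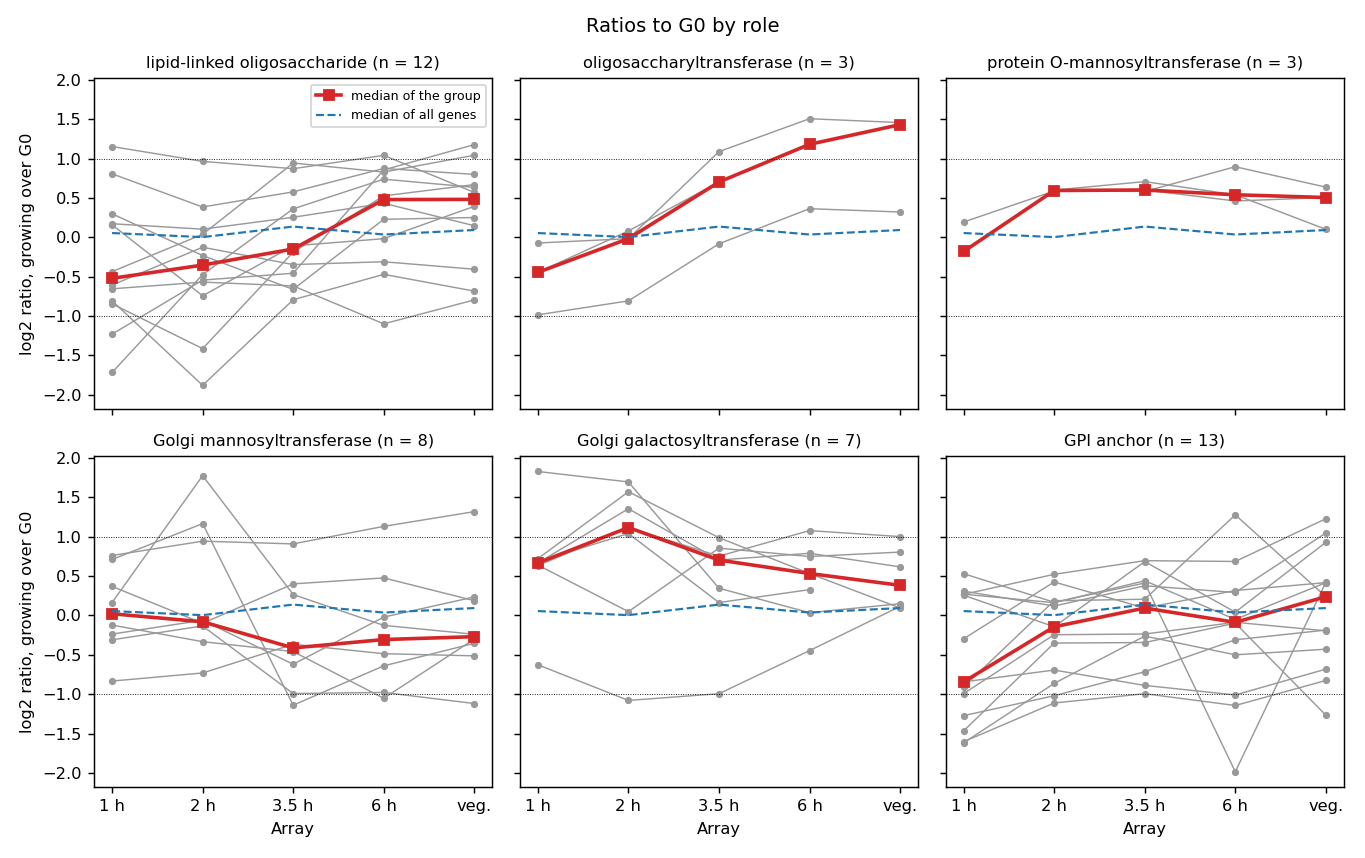
Log2 ratios of growing over G0 cells by role on the 5 arrays (grey lines, 1 gene each; red squares, median of the role; blue dashes, median of all genes; dotted lines, 2-fold). Oligosaccharyltransferase genes climb from a median of -0.44 at 1 h to 1.43 in vegetative cells, galactosyltransferase genes peak at 1.12 at 2 h, and GPI anchor genes start lowest at -0.84.

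Golgi galactosyltransferase genes stood higher than any other role at 1 and 2 h. These genes encode related alpha-galactosyltransferases, of which gma12 is the founding member. Of the 7, 6 were above G0 on each array of the time course, and the medians were 0.67, 1.12, 0.70, 0.53 and 0.38 in array order. Among all genes, 2457 of 4769, 2396 of 4781, 2639 of 4779 and 2479 of 4779 were above G0 at 1, 2, 3.5 and 6 h. Some of the 7 were barely above it, such as gmh1 at 2 h (0.05) and gmh2 at 6 h (0.04). Centring lowered the count of the 7 above G0 to 5 at 6 h, and centring of blocks to 4 at 3.5 h and to 5 of 6 in vegetative cells. At 2 h, 5 of 7 were at least 2-fold higher, beside the 22.8% of all genes given above; with each block centred or with arrays scaled it was 3 of 7.

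Within the family the time of the highest value differed. The gene gmh2 stood at 1.83, 1.70, 0.35, 0.04 and 0.15, so it was 2-fold above G0 only at 1 and 2 h. The gene gmh4 stood at 0.72, 1.57, 0.99, 0.53 and 0.10, and gmh6 at 0.67, 1.36, 0.70, 0.79 and 0.62, both highest at 2 h. The gene gmh5 stood at 0.63, 1.12, 0.75, 1.08 and 1.00 and reached 2-fold on 3 arrays, though only just: with each block centred those 3 values were 0.89, 0.88 and 0.82, all under 2-fold. The spot of gma12 gave 0.68, 1.04, 0.16 and 0.33 and no value for vegetative cells. The gene gmh1 stood at 0.64, 0.05, 0.86, 0.75 and 0.81, lowest at 2 h. The exception in direction was gmh3, at -0.63, -1.08, -0.99, -0.45 and 0.12. Related genes may share signal on cDNA spots, and how far that holds for the gmh and omh families was not tested.

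Golgi mannosyltransferase genes had no common direction. Their medians in array order were 0.02, -0.08, -0.41, -0.31 and -0.27, and the 1 h median was below 0 when arrays or blocks were centred. The gene mnn9, whose budding yeast counterpart encodes a subunit of the enzymes that extend the mannan backbone, stood at 0.76, 0.94, 0.91, 1.13 and 1.32 and was above G0 on all 5 arrays. The gene och1, for the enzyme that starts the outer chain of N-glycans, stayed between -0.62 and 0.24.

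The omh genes, of the family of alpha-mannosyltransferases that extend O-linked and N-linked chains, moved in different ways. The gene omh5 stood at 0.16, 1.78, 0.27, -0.13 and -0.24, and omh1 at 0.71, 1.17, -1.14, -0.64 and -0.35. Both were highest at 2 h, and omh1 was on opposite sides of G0 before and after that array. By contrast omh2 stood at -0.31, -0.13, -0.99, -0.98 and -1.12, lowest in vegetative cells. The ratios of omh4 ran from -1.05 at 6 h to -0.12, those of omh3 from -0.83 to -0.37 and those of omh6 from -0.10 to 0.48. Thus omh2, omh3 and omh4 were below G0 on all 5 arrays. Of the 45 genes with 5 values, omh1 was the 1 that was above G0 at 1 and 2 h and below it on the other arrays, beside 4.14% of all genes. The opposite course, below and then above, was that of alg8 and ost1, or 2 of 45 beside 5.40% of all genes. For ost1 this rests on values within the spot error, -0.07 at 1 h and -0.02 at 2 h. With each block centred its 2 h value was 0.0156, which takes it out of this course.

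GPI anchor genes had their lowest median at 1 h, at -0.84. There 4 of 13 were at least 2-fold below G0 and 0 above, beside 22.6% and 23.4% of all genes. The lower share is not far from that background for a list of this size. Directions were mixed, since gpi2, gpi3, gpi10, gpi13 and gpi14, 5 of the 13, were above G0 at 0.26 to 0.53. The 7 other GPI pathway genes measured, from the list described below, had a median of -0.15 at 1 h. Of these, 1 was at least 2-fold lower and 3 were above G0. On the later arrays the medians of the 13 genes were -0.14, 0.09, -0.09 and 0.24. Centring of blocks put the 3.5 h median at -0.14 and the vegetative one at -0.039, and centring of arrays put the 3.5 h one at -0.044, so their side of G0 rests on the centring. Of the 4 low genes at 1 h, gpi8 and gpi17 encode subunits of the same enzyme, the transamidase, while gpi12 and gpi7 act at other steps. The gene gpi12, for the deacetylase of the early intermediate, stood at -1.60, -1.11, -0.99, -1.14 and -0.83, below G0 throughout. The transamidase subunit gene gpi17 stood at -1.62, -0.86, -0.26, -0.50 and -0.43. The gene gpi7, for a transferase that adds ethanolamine phosphate to the second mannose, stood at -1.27, -1.02, -0.72, -0.31 and -0.19. The catalytic transamidase subunit gene gpi8 stood at -1.47, -0.35, -0.34, -0.10 and -1.27, low on the first and the last array only.

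The enzyme for the first GPI step, which puts N-acetylglucosamine on phosphatidylinositol, is made of several subunits, 4 of them among these genes. The gene gpi3, for the catalytic subunit, ran from -0.05 to 0.44, and gpi2 stood at 0.31, 0.12, 0.38, 0.29 and 1.05. The gene gpi15 was below G0 on all arrays, from -1.01 at 6 h to -0.68. The gene gpi1 stood at -0.91, 0.19, 0.21, 1.28 and 0.24, high at 6 h only. Subunits of 1 enzyme thus lay on both sides of G0. In the transamidase gpi16 ran from -0.30 to 0.43, so its subunit genes differed as well.

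Among the other mannosyl and ethanolamine phosphate transferase genes of the GPI pathway, gpi13 stood at 0.27, 0.52, 0.70, 0.69 and 1.23, above G0 on all arrays. The mannosyltransferase genes gpi10 and gpi18 ran from -0.14 to 0.93 and from -0.99 to -0.09. The gene for the first mannosyltransferase, gpi14, stood at 0.53, 0.17, 0.41, -1.99 and 0.42. Its 6 h value differed by -2.40 from the mean of the arrays on either side. Only 7 of 4745 genes (0.148%) departed as far at 6 h, so this is an isolated value of 1 spot. The gene was singled out after its values were seen. The count of genes 2-fold below G0 at 6 h, 5 with it, includes it. The phosphatidylinositol 4-kinase gene stt4 stood at -0.64, -0.15, 0.38, 0.17 and -1.14.

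Successive arrays differed by less than 2-fold for most of these genes, as they did for most of all genes. At 2 h relative to 1 h, omh5 (1.61), alg8 (1.24), gpi8 (1.12) and gpi1 (1.10) were at least 2-fold higher and alg1 (-1.07) lower, 4 and 1 of 46 genes beside 4.67% and 7.49% of all genes. With arrays scaled these were 1 and 1, beside 2.31% and 5.85%. At 3.5 h relative to 2 h, alg12 (1.23), ost1 (1.11) and alg1 (1.09) were higher and omh1 (-2.31), omh5 (-1.51) and gmh2 (-1.35) lower, 3 each of 46 beside 11.6% and 10.4%. Centred arrays gave 1 higher and 4 lower, beside 9.21% and 13.1%. The values of the 1 h and 2 h arrays carry 9 decimals and those of the other arrays 3, so at this step time and set of columns cannot be told apart. At 6 h relative to 3.5 h, alg6 (1.31) and gpi1 (1.07) were higher and gpi14 (-2.40) lower, beside 4.13% and 2.85% of all genes. In vegetative cells relative to 6 h, gpi14 (2.41) was higher and stt4 (-1.31), gpi8 (-1.17) and gpi1 (-1.04) lower, beside 3.03% and 2.54%. All arrays carry G0 RNA, and the labels do not say whether it is 1 preparation.

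Of these 18 differences, 10 exceeded 2 SD of the larger spot error for a difference of 2 arrays (1.18 to 1.24). They belong to alg8 and omh5 in the first step, alg12, gmh2, omh1 and omh5 in the second, alg6 and gpi14 in the next and gpi14 and stt4 in the last. No share of all genes past this limit is given here, so whether 10 is many or few cannot be read from it. The 2 differences of gpi14 both rest on its 6 h spot.

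**Figure D4:**
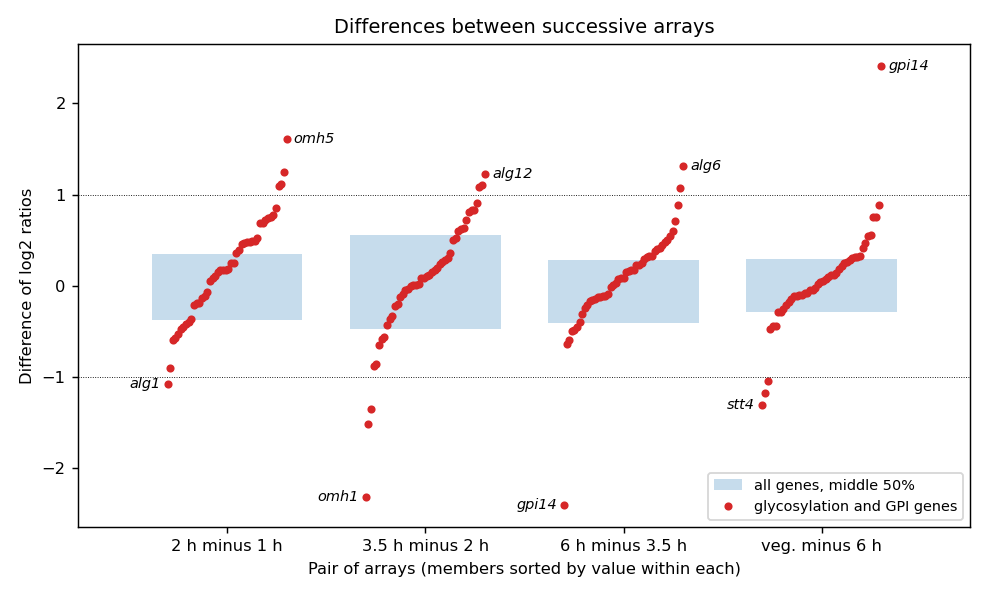
Difference of log2 ratios between successive arrays for each glycosylation or GPI anchor gene (red points, sorted within each pair of arrays) with the middle 50% of all genes (blue band) and the 2-fold limits (dotted). The outlying points are omh5 (1.61) between 1 and 2 h, omh1 (-2.31) between 2 and 3.5 h and gpi14 (-2.40, then 2.41) in the other steps.

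Of 45 other genes listed for these pathways, 41 had a value. Of them dad1, a kinetochore gene in fission yeast, and per1, an amino acid transporter gene, are not glycosylation genes, which leaves 39. In array order, the numbers of the 39 at least 2-fold higher were 3, 7, 7, 8 and 11, and of those lower 9, 9, 4, 2 and 3, with 38 measured at 1 and 2 h. Their medians were -0.18, 0.14, 0.13, 0.50 and 0.65. The background is that given above for each array. The farthest from G0 in this list were per1 (-3.81 at 2 h), gal10 (-3.50 at 1 h), gna1 (-2.44 at 2 h), hut1 (2.25 in vegetative cells), cnx1 (-2.17 at 1 h), dpm2 (-2.12 in vegetative cells), gls1 (-2.12 at 1 h) and otg1 (2.10 at 2 h). Other genes of the list named below were chosen after their values were seen.

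The oligosaccharyltransferase partners wbp1 and swp1 had ratios close to those of ost1 and ost2. The gene wbp1 stood at -0.20, 0.02, 1.03, 1.16 and 1.25, and swp1 at -0.26, -0.20, 0.92, 1.48 and 1.74. Of the 5 subunit genes measured, 4 were thus 2-fold above G0 at 6 h and in vegetative cells, and stt3 was not. Of all genes, 15.6% and 15.8% were at least 2-fold above G0 on these arrays.

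The 4 measured genes of N-glycan trimming and folding in the ER had a median of -1.91 at 1 h, against -0.52 for the alg genes. The sets overlapped, since alg8 stood at -1.72 on that array. Golgi transferase genes, whose enzymes also act after the transfer, are not in this set. The calnexin gene cnx1, for a lectin that holds glycoproteins during folding, stood at -2.17, -1.46, 1.67, 1.36 and 0.87. The glucosidase gene gls1, for the enzyme that removes the outermost glucose, stood at -2.12, -1.22, -0.05, 0.53 and 0.66, and the glucosidase gene gls2 at -1.70, -1.38, -0.28, 0.05 and 0.01. The gene gpt1, for the enzyme that puts glucose back on unfolded glycoproteins, stood at -1.25, 0.15, 1.32, 1.89 and 1.38. All 4 were at least 2-fold below G0 at 1 h, as 22.6% of all genes were, and cnx1 and gpt1 were more than 2-fold above it at 3.5 and 6 h, as were 18.9% and 15.6% of all genes. The mannosidase gene mns1 had no value at 1 h and ran from 0.65 to 1.29 after it.

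**Figure D5:**
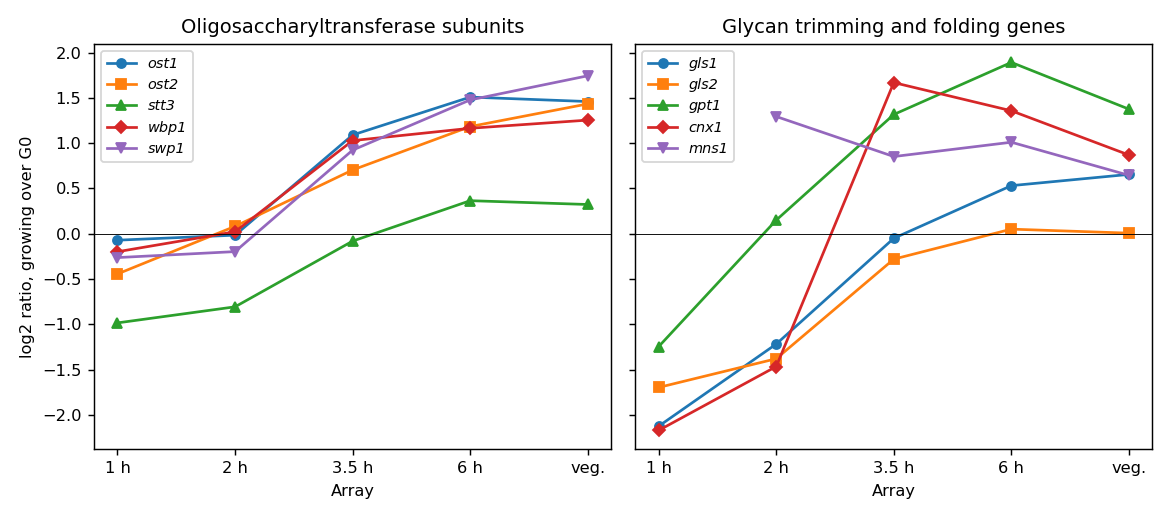
Log2 ratios of growing over G0 cells on the 5 arrays for oligosaccharyltransferase subunit genes (left) and for genes of N-glycan trimming and folding (right), 1 line per gene and 1 spot per point. On the left 4 of 5 lines end above 1 while stt3 ends at 0.32, and on the right cnx1 goes from -2.17 at 1 h to 1.67 at 3.5 h.

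Genes that supply sugar donors differed in direction. For dolichol phosphate mannose synthase, dpm2 stood at -0.86, -0.97, -1.83, -1.91 and -2.12 and dpm3 at -1.04, -2.00, -1.05, -0.97 and -1.09, below G0 on all 5 arrays, while the spot of the catalytic subunit gene dpm1 had no value on any array. The gene gna1, for an acetyltransferase on the way to UDP-N-acetylglucosamine, stood at -2.31, -2.44, -1.20, -1.55 and -1.97. The gene mpg1, for the enzyme that makes GDP-mannose, stood at 0.89, 1.23, 0.07, 0.95 and 1.39. In the GPI pathway its8, for the transferase that adds ethanolamine phosphate to the first mannose, stood at 0.03, 1.17, 1.63, 1.89 and 2.08, above all 13 gpi genes on the last 4 arrays. The gene pbn1, for the partner of the gpi14 enzyme, stood at -2.01, -1.02, 0.02, -0.62 and -0.30.

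For Golgi galactosylation the UDP-galactose transporter gene gms1 was above G0 on every array, at 0.70, 1.02, 0.88, 0.88 and 1.02. The gene hut1, for a related transporter whose part in this step was not examined, stood at 0.99, 1.28, 1.74, 1.18 and 2.25. The genes of UDP-galactose synthesis, uge1 and gal10, which encode epimerases, were low at 1 and 2 h: uge1 stood at -0.76, -1.27, -0.76, -0.44 and -0.53, and gal10 at -3.50, -2.94, 0.06, -0.07 and 0.53. The gene pvg1, for the enzyme that puts pyruvate on the galactose residues, stood at 1.96, 2.00, 0.27, 0.38 and 0.67. Like gmh2 it was 2-fold above G0 at 1 and 2 h and under 2-fold later.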

How the data were processed

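The deposited values are log ratios, taken here as log2 ratios of Cy5 (growing cells) over Cy3 (G0 cells), per the labels, on 1 array per condition; for image analysis, background correction, normalization and log base, the authors' choices are not stated in the labels. Base 2 is thus an assumption, direction follows the dyes, and 2-fold is a size rule with no test. The table has 5188 rows: 5184 spots in 16 blocks of 324, and 4 rows after them, left out here, 3 of which hold the authors' averages of the control genes. Platform annotation names 1 gene for 4865 spots, several for 22 and none for 297. Spots of a gene were averaged (4797 genes, 4708 with all 5 values), without 1 nda3 spot that the authors' average leaves out at 1 and 2 h. Spot intensities were not used, so no filter on dim spots was set, and the number of arrays limits the precision. Symbols were checked through Entrez identifiers in the RefSeq gene table of ASM294v3, which also gave gene order; all 47 symbols are current there. Gene sequences were not used here. The members and lists were chosen with earlier results of these data known. Role groups follow the symbols, every member could be named, and up to 8 genes of the other pathway list are named by size. Python 3.11.15, numpy 2.4.6 and pandas 2.3.3 were used, and the averaging and size rule were tested on simulated data. Alternatives were medians or the first of repeated spots, centred arrays or blocks, arrays scaled to 1 median absolute deviation, genes with 5 values, 1.5-fold, natural logarithms and current symbols.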

Additional observations from a re-analysis of the deposited data

How the results depend on the processing

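Member values rest on 1 spot each, so averaging by medians or by the first spot changed none of their counts or medians, and neither did current symbols; genes with 5 values left every count within 1.5 times. All 44 values past 2-fold kept their sign under centred arrays, centred blocks and scaled arrays, and 40, 34 and 37 of them stayed past 2-fold. The counts are small, and a change of array level moves them. Centring arrays took the higher genes from 1 to 0 and the lower from 1 to 5 at 3.5 h, the higher genes in vegetative cells from 8 to 5, and those of the step from 2 to 3.5 h from 3 to 1. Centring blocks gave 0 higher and 6 lower at 3.5 h, 3 higher at 6 h, 4 in vegetative cells and 1 in the step from 2 to 3.5 h. It also took the median of the 47 genes from 0.26 to -0.0055 at 3.5 h and from 0.29 to 0.0265 at 6 h. The same centring moved role medians at 3.5 h to -0.39 (alg), 0.48 (oligosaccharyltransferase), -0.68 (Golgi mannosyltransferases) and -0.14 (GPI). It moved the Golgi mannosyltransferases to -0.27 at 1 h, and in vegetative cells the O-mannosyltransferases to 0.25 and GPI genes to -0.039. Scaling gave 1 higher at 1 h, 2 lower at 2 h, 2 higher and 4 lower at 3.5 h, 10 higher at 6 h, 1 higher in the step from 1 to 2 h and 2 in the step from 6 h to vegetative cells, with oligosaccharyltransferase medians of 1.44 at 6 h and 1.72 in vegetative cells.

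A 1.5-fold limit gave, as higher and lower genes, 10 and 17 on the 1 h array, 11 and 10 on the 2 h array, 13 and 10 on the 3.5 h array, 14 higher ones at 6 h, and 15 and 7 in vegetative cells. In the 4 steps it gave 11 and 3, 11 and 6, 5 and 3, and 4 higher. All genes past 1.5-fold were 26.5% to 32.5% higher and 24.4% to 32.3% lower on the arrays, and 10.2% to 23.8% and 9.57% to 21.0% in the steps. At this limit the share of the 47 genes was above that of all genes for the lower ones at 1 h and the higher ones at 6 h, in vegetative cells and in the first 2 steps. If the values were natural logarithms, 2-fold would give 6 and 13 at 1 h, 10 lower at 2 h, 11 and 7 at 3.5 h, 13 higher at 6 h and 5 lower in vegetative cells, and in the steps 9 and 2, 8 and 5, 4 higher, and 4 higher, with all genes at 22.7% to 29.7% and 21.1% to 29.4% on the arrays and 7.34% to 19.7% and 6.67% to 17.7% in the steps. The rise in counts follows from the lower limit itself. Why the order beside all genes changed as well was not tested. No paired analysis was possible because each condition had 1 array.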

Other observations

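The genes gmh1 and gmh2 are neighbours but for otg1, another galactosyltransferase gene, which lies between them in the gene table on chromosome I. Their log2 ratios over G0 differed: at 2 h otg1 stood at 2.10, gmh2 at 1.70 and gmh1 at 0.05, and in vegetative cells otg1 at 1.25, gmh2 at 0.15 and gmh1 at 0.81. On chromosome II, otg3 (0.67 at 2 h) and otg2 (-0.31 at 2 h) are adjacent as well. These were the 3 adjacent pairs within the 47 genes and the other pathway list, 0 of them between members of the 47. The 47 genes lie on all chromosomes, 22 on I, 19 on II and 6 on III.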
